A study of Mus musculus with 6 samples.

Results

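The 28 genes described here encode the cholesterol synthesis pathway of the mouse and the machinery around the transcription factor SREBP2. They comprise 8 mevalonate pathway enzymes, 12 enzymes from squalene to cholesterol, 4 regulators of SREBP2 and 4 genes of sterol transport and storage. They were chosen by gene symbol, and all 28 were found among the 22599 symbols of the deposited tables and passed the filter on low counts that left 13205 genes. The liver RNA came from 3 NcoR1ΔHep libraries, named for loss of the corepressor NcoR1 in hepatocytes, and from 3 flox libraries, whose mice carried floxed NcoR1 alleles (NcoR1fl/fl). The genotype label calls the NcoR1ΔHep libraries knockdown NcoR1 and the flox libraries WT, and it names no Cre driver, strain, age or sex. All 6 titles give 0 h of ischemia-reperfusion, and all 6 treatment labels name liver ischemia-reperfusion, so both groups share that label. Whether each library came from a separate mouse is not stated, so every p-value below measures the spread between these libraries, which may be technical.

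Cholesterol is built from acetyl-CoA through mevalonate, isoprenoids, squalene and lanosterol, largely in the endoplasmic reticulum, and the liver is a main site of its synthesis. SREBP2, encoded by Srebf2, is held in that membrane with its escort SCAP by the INSIG proteins when sterols are plentiful. When sterols fall, SCAP carries SREBP2 to the Golgi, where it is cut, and the released factor switches on most genes of the pathway, Insig1 included. NcoR1 is recruited by unliganded nuclear receptors, and the series compared livers with and without it in hepatocytes around ischemia-reperfusion injury.

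The libraries held 36975231 to 38470468 counts each. Ncor1 itself was at 5.34, 6.63 and 4.93 FPKM in NcoR1ΔHep 1, 2 and 3, against 6.78, 6.70 and 7.72 FPKM in flox 1, 2 and 3, a log2 fold change of -0.31 in edgeR (SE 0.21, adjusted p = 0.931). FPKM are the authors' values, scaled by gene length and by the library total. The labels do not say which part of the gene was deleted, so whole-gene counts are an incomplete check, and the groups rest on the labels. NcoR1ΔHep 1 stands apart in its sex-linked transcripts, with 17138 Xist counts against 6 to 18 in the other 5 libraries. Its Y-linked counts, summed over Ddx3y, Uty, Kdm5d and Eif2s3y, were 20, against 4174 to 10122 in the other 5. NcoR1ΔHep 1 thus had a female pattern and the other 5 a male pattern. By these transcripts, sex was mixed within NcoR1ΔHep and not within flox. Values without NcoR1ΔHep 1 are given where they differ in direction or by over 1.5 times. Alb, which marks hepatocytes, took 6.96% to 7.68% of the counts in NcoR1ΔHep and 6.56% to 8.85% in flox. Of the exocrine pancreas marker Cpa1 and the adipocyte marker Plin1, each was listed at 0 FPKM in 5 of the 6 libraries. The adipocyte marker Adipoq had 0, 1 and 0 counts in NcoR1ΔHep 1, 2 and 3 and 0, 1 and 14 counts in flox 1, 2 and 3, the last at 0.307 FPKM.

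The question put to these genes was whether the sterol pathway differed between the genotypes at the 0 h time. The enzymes were, with 1 exception, higher on average in NcoR1ΔHep, while Srebf2, Scap and 3 of the 4 transport genes were close to even and Insig2 was lower. No member passed the adjusted threshold. Of the 28 members, 25 had a log2 fold change of NcoR1ΔHep over flox above 0, against 53.5% of all 13205 tested genes. The median of the members was 0.45 on the log2 scale (quartiles 0.14 and 0.55), beside 0.03 for all tested genes. Among the 20 enzymes, 19 were above 0 and the median log2 fold change was 0.50.

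By edgeR's quasi-likelihood test, 0 members had an adjusted p under 0.05, as had 0.0% of all tested genes. By DESeq2 the count of members was also 0, while it called 0.0246% of all genes. An unadjusted edgeR p under 0.05 was reached by 6 members with higher levels in NcoR1ΔHep, where 1.43% of all tested genes did so. These were Hmgcs1, Mvk, Fdft1, Sqle, Lss and Cyp51. It was reached by 1 member with a lower level, Insig2, where 1.92% of all genes did so, and 3.35% of all genes reached it in either direction. DESeq2 gave 10 higher and 1 lower member at an unadjusted p under 0.05, with 1.55% of all genes in the higher direction. The count of 7 members depended on single libraries, being 3 without flox 1 (0.78% of all genes), 1 without flox 2 and 3 without NcoR1ΔHep 2 (5.7%). Without flox 2 the remaining member was Hmgcs1, where 1.28% of all genes were higher at that p. Without NcoR1ΔHep 1 it was 5, all higher (0.866% of all genes), and 27 of the 28 members were above 0, as were 53.6% of all genes. The median of the members was then 0.39 on the log2 scale. In the same setting 10 members had all NcoR1ΔHep libraries above all flox libraries in TMM-scaled counts, where 6.37% of all genes did. In tissue RNA, fewer cells of a type and less RNA per cell cannot be told apart.

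**Figure D1:**
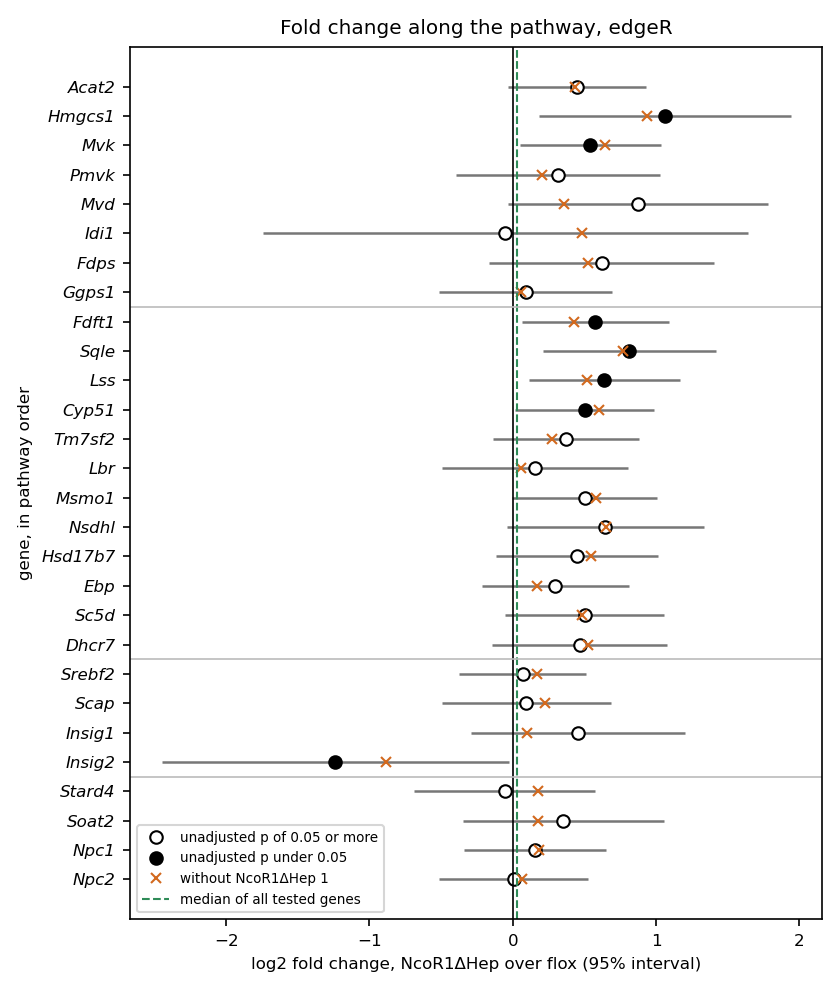
Log2 fold change of NcoR1ΔHep over flox from edgeR (x axis) for the 28 members in pathway order (y axis), with bars for the 95% interval and crosses for the value without NcoR1ΔHep 1. The sterol enzymes all lie right of 0, the interval spans 0 in 21 members, and Insig2 lies at -1.24.

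The first group, the mevalonate enzymes, makes the isoprenoid units from which sterols are assembled. Acat2, the cytosolic thiolase that joins acetyl-CoA units, was at 50.3, 51.0 and 33.9 FPKM in NcoR1ΔHep 1, 2 and 3 and at 37.6, 27.5 and 35.1 FPKM in flox 1, 2 and 3. The groups overlapped in FPKM and did not overlap in CPM, the counts scaled to a common library size with TMM factors, since those factors of 0.901 to 1.11 rescale the libraries. Its log2 fold change was 0.45 (SE 0.21). The counts of Acat2 are uncertain, because reads may be shared with the related gene Acat3, which had 7627 to 9742 counts a library, against 2198 to 3952 for Acat2. Acat3 had a log2 fold change of -0.01 (SE 0.22), or 0.02 without NcoR1ΔHep 1.

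Hmgcs1, the cytosolic HMG-CoA synthase, had the largest fold change among the members that were higher. It was at 256, 130 and 211 FPKM in NcoR1ΔHep 1, 2 and 3, against 96.2, 132 and 59.6 FPKM in flox 1, 2 and 3. NcoR1ΔHep 2 lay just below flox 2, so the groups overlapped. The mean was 199 ± 63.6 FPKM in NcoR1ΔHep and 95.9 ± 36.1 FPKM in flox (SD, n = 3 each). On the log2 scale edgeR gave 1.06 (SE 0.38, adjusted p = 0.931) with a 95% interval of 0.19 to 1.94, and the value ranged from 0.81 to 1.44 when each library was left out in turn.

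Mvk, the mevalonate kinase, was at 9.33, 11.5 and 8.69 FPKM in NcoR1ΔHep 1, 2 and 3 and at 7.54, 5.44 and 7.72 FPKM in flox 1, 2 and 3. Every NcoR1ΔHep library lay above every flox library, and the log2 fold change was 0.54 (SE 0.21). The kinase that follows, Pmvk, was lowest in NcoR1ΔHep 3, with 11.8, 12.2 and 4.92 FPKM in NcoR1ΔHep and 9.33, 6.06 and 7.98 FPKM in flox. Its log2 fold change was 0.31 (SE 0.31), or 0.21 without NcoR1ΔHep 1. Mvd, the decarboxylase that yields isopentenyl diphosphate, was at 24.0, 10.9 and 7.53 FPKM in NcoR1ΔHep and 11.1, 5.27 and 6.94 FPKM in flox. NcoR1ΔHep 1 was far above the rest, and the log2 fold change of 0.88 (SE 0.39) was 0.35 without it.

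Idi1, the isomerase that interconverts the isoprenoid units, was the enzyme that did not share the direction. It had 3.43 FPKM in NcoR1ΔHep 1, while NcoR1ΔHep 2 and 3 had 25.6 and 38.5 FPKM, and flox 1, 2 and 3 had 32.0, 28.2 and 14.6 FPKM. In counts, NcoR1ΔHep 1 had 369 and the other 5 libraries 1543 to 4114. NcoR1ΔHep 1 was thus the lowest library for Idi1 and the highest for Hmgcs1, Mvd, Fdft1, Sqle and Lss in FPKM. The log2 fold change of Idi1 was -0.05 (SE 0.74), or 0.48 without NcoR1ΔHep 1. The related gene Idi2 had 0 counts in every library, which allows up to 3 counts in each.

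Fdps, the farnesyl diphosphate synthase, was at 233, 235 and 107 FPKM in NcoR1ΔHep 1, 2 and 3 and at 127, 81.3 and 165 FPKM in flox 1, 2 and 3. The groups overlapped through NcoR1ΔHep 3 and flox 3, and the log2 fold change was 0.62 (SE 0.34). Ggps1, which leads away from sterols to geranylgeranyl diphosphate, had the lowest level of all members, 0.919 ± 0.201 FPKM in NcoR1ΔHep and 0.881 ± 0.121 FPKM in flox (SD, n = 3 each). Its log2 fold change was 0.09 (SE 0.26, 95% interval -0.51 to 0.70), or 0.06 without NcoR1ΔHep 1.

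**Figure D2:**
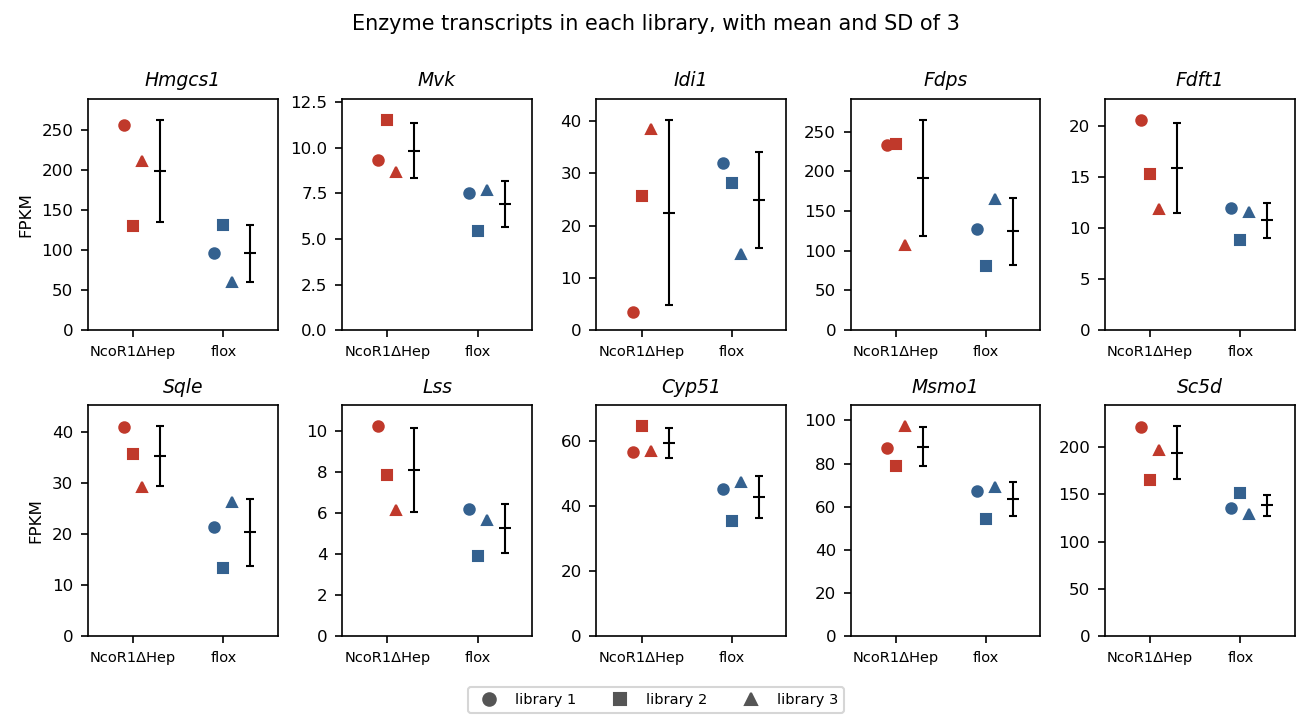
FPKM (y axis, from 0) of 10 enzymes in each library, with NcoR1ΔHep left of flox, a marker shape for each replicate number, and the mean ± SD of 3 libraries beside the points. Sqle, Mvk, Cyp51, Msmo1 and Sc5d show no overlap of the groups, while Idi1 has 1 library at 3.43 FPKM.

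The second group makes squalene and turns it into cholesterol, and all 12 of its enzymes had a log2 fold change above 0, from 0.16 to 0.81. Fdft1, the squalene synthase at the branch into sterols, was at 20.6, 15.3 and 11.8 FPKM in NcoR1ΔHep 1, 2 and 3 and at 11.9, 8.78 and 11.5 FPKM in flox 1, 2 and 3. Its log2 fold change was 0.58 (SE 0.22). RefSeq places Fdft1 over part of Ctsb, which had 131467 counts in all 6 libraries together against 31263 for Fdft1, and since no source used here gives the strand setting, some of its reads cannot be told apart from those of Ctsb.

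Sqle, the squalene epoxidase and a rate-limiting enzyme of the sterol branch, was at 40.9, 35.7 and 29.2 FPKM in NcoR1ΔHep 1, 2 and 3. It was at 21.3, 13.3 and 26.3 FPKM in flox 1, 2 and 3, so the groups did not overlap, by a margin smaller than the spread within either. Its log2 fold change of 0.81 (SE 0.26, edgeR adjusted p = 0.931), with a 95% interval of 0.21 to 1.42, was the largest of the sterol enzymes and ranged from 0.61 to 1.07 with each library left out. Lss, the lanosterol synthase, was at 10.2, 7.88 and 6.15 FPKM in NcoR1ΔHep and 6.22, 3.89 and 5.65 FPKM in flox. NcoR1ΔHep 3 and flox 1 were nearly level in FPKM, and the log2 fold change was 0.64 (SE 0.23).

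Cyp51, the lanosterol demethylase, was at 56.8, 64.6 and 56.8 FPKM in NcoR1ΔHep 1, 2 and 3 and at 45.4, 35.5 and 47.5 FPKM in flox 1, 2 and 3. It had the narrowest NcoR1ΔHep spread of the 20 enzymes relative to its mean, no overlap, and a log2 fold change of 0.50 (SE 0.21). The reduction that follows can be made by either of a pair of proteins, Tm7sf2 and the lamin B receptor Lbr. Per length, Tm7sf2 was much the more abundant transcript, with an FPKM ratio over Lbr of 25.2, 27.1 and 22.7 in NcoR1ΔHep 1, 2 and 3 and of 15.7, 30.6 and 23.2 in flox 1, 2 and 3. The ratios overlapped, and so did the levels of each gene. The log2 fold change was 0.37 (SE 0.22) for Tm7sf2, which overlaps the less abundant Vps51 in RefSeq, and 0.16 (SE 0.28) for Lbr, which was at 0.06 without NcoR1ΔHep 1.

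Msmo1, Nsdhl and Hsd17b7 act in turn to remove the methyl groups at one carbon of the sterol ring. Msmo1, the methyl oxidase, was at 87.2, 79.0 and 97.3 FPKM in NcoR1ΔHep 1, 2 and 3 and at 67.2, 54.3 and 69.2 FPKM in flox 1, 2 and 3, with no overlap. Its log2 fold change was 0.50 (SE 0.22). Nsdhl, the decarboxylating dehydrogenase, overlapped through NcoR1ΔHep 3 at 41.4 FPKM and flox 3 at 52.4 FPKM, and had 0.65 (SE 0.30) on the log2 scale. Hsd17b7, the ketone reductase, was at 12.1, 10.6 and 14.9 FPKM in NcoR1ΔHep and 9.78, 10.1 and 8.32 FPKM in flox. It separated the groups in FPKM but not in TMM-scaled CPM.

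The last enzymes rearrange and reduce double bonds. Ebp, the sterol isomerase, was at 143 ± 34.9 FPKM in NcoR1ΔHep and 117 ± 12.3 FPKM in flox (SD, n = 3 each), with overlap and a log2 fold change of 0.30 that was 0.17 without NcoR1ΔHep 1. Sc5d, the desaturase, was among the most abundant members, at 221, 165 and 197 FPKM in NcoR1ΔHep 1, 2 and 3 against 135, 151 and 130 FPKM in flox 1, 2 and 3. All its NcoR1ΔHep libraries lay above all flox libraries, and its log2 fold change was 0.50 (SE 0.24). Dhcr7, which completes cholesterol in one arm of the pathway, overlapped, with 24.3, 29.6 and 18.0 FPKM in NcoR1ΔHep and 16.9, 13.0 and 22.5 FPKM in flox.

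In TMM-scaled CPM, 8 members had all 3 NcoR1ΔHep libraries above all 3 flox libraries, where 3.29% of all tested genes did, and 0 had them below, where 5.53% did. On the total-count scale of FPKM it was 6 members above (2.61% of all genes) and 0 below (4.95%), and 5 were the same on both scales, namely Cyp51, Msmo1, Mvk, Sc5d and Sqle. Such counts also depend on single libraries, and members apart in either direction numbered 13 without NcoR1ΔHep 2, 14 without NcoR1ΔHep 3 and 15 without flox 3. Over all genes the share apart was larger in those settings too, at 22.0%, 24.2% and 25.9% in that order. Among the 20 enzymes, an NcoR1ΔHep library was the highest for 19 and a flox library the lowest for 17. Of all 13205 tested genes, NcoR1ΔHep 1, 2 and 3 were the highest for 3839, 1447 and 2607. Over the same genes flox 1, 2 and 3 were the lowest for 2179, 1912 and 1381. The low end of the enzymes was mostly 1 library, flox 2, which was the lowest for 13 of the 20 enzymes. The FPKM of the 20 enzymes summed to 1407, 1173 and 1057 in NcoR1ΔHep 1, 2 and 3, against 852, 762 and 869 in flox 1, 2 and 3.

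**Figure D3:**
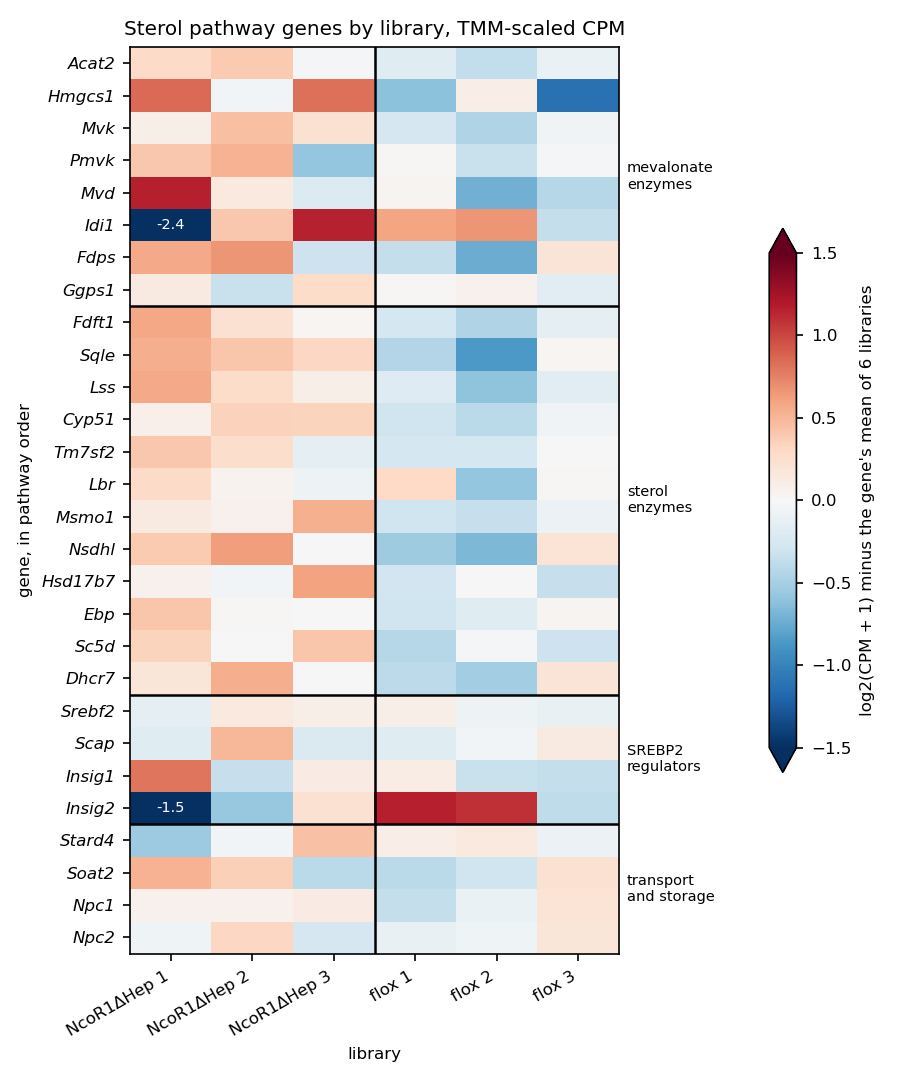
Colour gives log2(CPM + 1) of each member minus its mean of the 6 libraries, on TMM-scaled CPM, with genes in pathway order down the page and the 3 NcoR1ΔHep libraries left of the 3 flox libraries. The enzymes are mostly red in NcoR1ΔHep and blue in flox 2, and the 2 cells beyond the colour scale are Idi1 and Insig2 in NcoR1ΔHep 1.

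The mean level of the enzymes in each library showed how evenly this was spread. For the 20 enzymes the mean log2(CPM + 1), less its mean of the 6 libraries, was 0.25, 0.25 and 0.17 in NcoR1ΔHep 1, 2 and 3 and -0.21, -0.33 and -0.14 in flox 1, 2 and 3. Scaled by total counts in place of TMM factors, the values were 0.35, 0.27 and 0.03 in NcoR1ΔHep and -0.06, -0.43 and -0.16 in flox, still without overlap. The mevalonate enzymes alone were apart with TMM factors but overlapped with total counts, at 0.03 in NcoR1ΔHep 3 and 0.06 in flox 1, and the sterol enzymes were apart with both. For all 28 members the groups were apart with TMM factors but overlapped with total counts, at -0.02 in NcoR1ΔHep 3 and 0.02 in flox 1. Summed FPKM of 8 hepatocyte markers was 57818 to 62142 in NcoR1ΔHep and 57386 to 63318 in flox, so the 2 ranges overlapped. Sinusoidal endothelial markers were lower in all 8 of 8 genes tested, 0 of them by adjusted p, with summed FPKM of 82.8, 46.4 and 33.3 in NcoR1ΔHep 1, 2 and 3 against 134, 50.1 and 78.2 in flox 1, 2 and 3. Their median log2 fold change was -0.69, with 1 of 8 at an unadjusted p under 0.05, and without NcoR1ΔHep 1 it was -1.06, with 5 of 8 at that p. Of all tested genes, 254 of 13205 were lower at that p, and 209 of 13391 without NcoR1ΔHep 1. Flox 1 was the highest library for all 8 endothelial markers. Without flox 1 their log2 fold changes ran from -0.45 for Kdr to 0.36 for Stab1. None of the 8 was at 0 in any library, and their part in the enzyme result was not tested.

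Among the regulators, Srebf2 and Scap were nearly level between the groups. Srebf2 was at 5.46, 6.39 and 5.44 FPKM in NcoR1ΔHep 1, 2 and 3 and at 6.69, 5.02 and 5.15 FPKM in flox 1, 2 and 3, with a log2 fold change of 0.07 (SE 0.19, 95% interval -0.37 to 0.51). The interval allows a difference of either sign, and the value was 0.17 without NcoR1ΔHep 1. Scap was at 21.0, 32.0 and 17.2 FPKM in NcoR1ΔHep and 21.9, 20.3 and 24.1 FPKM in flox (log2 fold change 0.10, SE 0.26, and 0.22 without NcoR1ΔHep 1). These are transcript levels and say nothing of how much SREBP2 was cut.

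Insig1, an SREBP2 target that holds the SCAP complex back, was at 229, 97.3 and 119 FPKM in NcoR1ΔHep 1, 2 and 3 and at 146, 90.4 and 93.4 FPKM in flox 1, 2 and 3. NcoR1ΔHep 1 was the highest, the groups overlapped, and the log2 fold change of 0.45 (SE 0.32) was 0.10 without that library. Insig2, its paralog, is driven by a separate liver promoter in the mouse that insulin represses. It was at 10.4, 19.6 and 30.2 FPKM in NcoR1ΔHep 1, 2 and 3, against 71.6, 57.0 and 21.6 FPKM in flox 1, 2 and 3. High levels were found in flox 1 and flox 2, whereas flox 3 lay within the NcoR1ΔHep range. The value from edgeR was -1.24 on the log2 scale (SE 0.53, adjusted p = 0.931) with a 95% interval of -2.45 to -0.03, and it was -0.88 without NcoR1ΔHep 1.

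The libraries with the highest Insig2, flox 1 and flox 2, also differed from the rest in genes of the circadian clock. Dbp, a clock output gene, was at 92.6, 41.9 and 37.6 FPKM in NcoR1ΔHep 1, 2 and 3, against 0.948, 3.76 and 47.2 FPKM in flox 1, 2 and 3. Arntl, which encodes BMAL1, was at 0.0305, 0.109 and 0.0709 FPKM in NcoR1ΔHep and 1.29, 0.702 and 0.0983 FPKM in flox. For Insig2, Dbp and Arntl alike, flox 3 was closer to NcoR1ΔHep than to flox 1 and flox 2. Of 16 clock genes tested, 13 had a log2 fold change above 0, as had 53.5% of all tested genes. Arntl was at -3.23 on the log2 scale in edgeR (SE 0.84, adjusted p = 0.931). It was among the 5 genes that DESeq2 called, with a DESeq2 adjusted p of 0.0317. The part of the clock genes in the Insig2 and enzyme values was not tested. On the mean level above, the 20 enzymes together were at -0.21, -0.33 and -0.14 in flox 1, 2 and 3. The 8 mevalonate enzymes were at -0.09, -0.23 and -0.26 there. The 12 sterol enzymes were at -0.28, -0.41 and -0.05 in flox 1, 2 and 3 and at 0.18 in NcoR1ΔHep 3. For these 12, flox 3 was thus about as far from flox 1 as from NcoR1ΔHep 3.

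**Figure D4:**
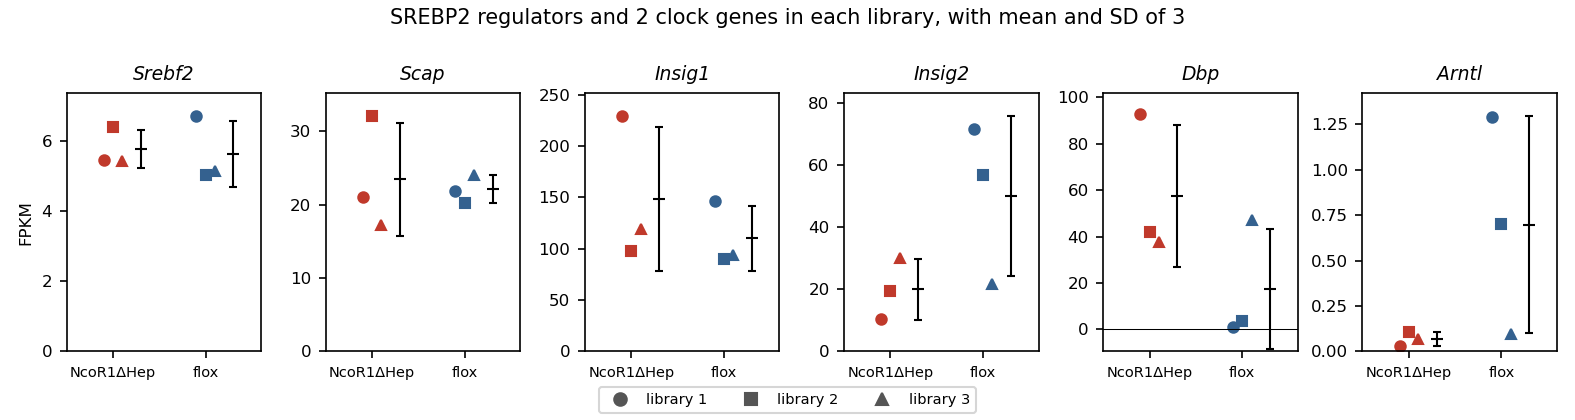
FPKM (y axis, one scale per gene) of Srebf2, Scap, Insig1, Insig2 and the clock genes Dbp and Arntl in each library, NcoR1ΔHep left of flox, with mean ± SD of 3. Insig2 and Arntl are high and Dbp is low in flox 1 and flox 2, and flox 3 sits with the NcoR1ΔHep libraries for all 3 genes.

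The FPKM ratio of Insig1 to Insig2 was 22.1, 4.97 and 3.96 in NcoR1ΔHep 1, 2 and 3 and 2.04, 1.59 and 4.32 in flox 1, 2 and 3. The groups overlapped through NcoR1ΔHep 3 and flox 3, so Insig1 outweighed Insig2 in all 6 libraries but by a widely differing factor.

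The transport and storage genes did not share the pattern of the enzymes. Stard4, a soluble sterol carrier and SREBP2 target, was at 18.8, 25.4 and 31.5 FPKM in NcoR1ΔHep 1, 2 and 3 and at 30.9, 26.7 and 23.8 FPKM in flox 1, 2 and 3, with a log2 fold change of -0.06 (SE 0.27). It was low in the same library as Idi1, and its log2 fold change was 0.17 without NcoR1ΔHep 1. Soat2, the acyltransferase that esterifies cholesterol for storage and secretion in hepatocytes, was at 17.4, 14.6 and 7.49 FPKM in NcoR1ΔHep and 9.28, 8.36 and 13.0 FPKM in flox. The log2 fold change of Soat2, 0.35 (SE 0.31), was 0.18 without NcoR1ΔHep 1. Npc1 and Npc2, which export cholesterol from lysosomes, had log2 fold changes of 0.15 (SE 0.21) for Npc1 and 0.01 (SE 0.23) for Npc2, the second of them 0.06 without NcoR1ΔHep 1. Npc1 overlaps Rmc1 in RefSeq, and Rmc1 had 2632 counts in all libraries together against 23583 for Npc1.

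Genes next to the pathway were taken from lists chosen together with the members. Of 8 redox partners and companions of the sterol enzymes, 7 had a log2 fold change above 0 and the median was 0.26, or 6 of 8 and 0.17 without NcoR1ΔHep 1. Erg28, a membrane tether of the sterol enzymes first described in yeast, was at 56.7, 40.9 and 36.1 FPKM in NcoR1ΔHep 1, 2 and 3 and at 29.1, 27.7 and 31.6 FPKM in flox 1, 2 and 3, without overlap (log2 fold change 0.60, SE 0.21). It was the only one of the 8 with an unadjusted p under 0.05, where 3.35% of all tested genes had one. Cyb5b, a cytochrome b5, went the other way, at 73.9 ± 14.9 FPKM in NcoR1ΔHep and 101 ± 10.4 FPKM in flox (SD, n = 3 each), or -0.41 on the log2 scale (SE 0.26), and -0.20 when NcoR1ΔHep 1 was left out.

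Of 14 genes that use isoprenoids for other ends, 5 had a log2 fold change above 0, and the median was -0.06. An unadjusted p under 0.05 was reached by 0 of them, where 3.35% of all tested genes did so. In TMM-scaled CPM 2 of the 14 were apart and lower, where 5.53% of all tested genes were. Without NcoR1ΔHep 1 the split was even, with 7 of 14 above 0 and a median of -0.02. Icmt, which methylates prenylated proteins, was at 3.65 ± 0.878 FPKM in NcoR1ΔHep and 5.45 ± 1.35 FPKM in flox, and Pdss2, a subunit that builds the tail of coenzyme Q, at 1.22 ± 0.313 FPKM in NcoR1ΔHep and 1.73 ± 0.112 FPKM in flox (SD, n = 3 each). On the log2 scale Icmt was at -0.53 and Pdss2 at -0.47, or -0.33 and -0.23 without NcoR1ΔHep 1. Of 22 genes for moving, cutting and degrading SREBP and its partners, 10 were above 0 and the median was -0.05, and without NcoR1ΔHep 1 the direction turned, with 13 of 22 above 0 and a median of 0.05. Ube2g2, a ubiquitin-conjugating enzyme of endoplasmic reticulum degradation, was at -0.67 on the log2 scale (SE 0.23), and Sec24c, a coat protein of the vesicles that leave that membrane, at -0.47 (SE 0.19). For both, no NcoR1ΔHep library reached the lowest flox library in TMM-scaled CPM.

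Of 15 sterol uptake and carrier genes, 5 were above 0 and the median log2 fold change was -0.15, or 7 of 15 and -0.12 without NcoR1ΔHep 1. Gramd1c, a carrier of plasma membrane cholesterol, was at 11.3, 7.05 and 9.31 FPKM in NcoR1ΔHep 1, 2 and 3 against 5.70, 5.85 and 5.75 FPKM in flox 1, 2 and 3 (log2 fold change 0.69, SE 0.23). The flox libraries were nearly level. Lrp1, a lipoprotein remnant receptor, was at 21.4, 28.6 and 21.8 FPKM in NcoR1ΔHep against 45.8, 36.9 and 34.0 FPKM in flox (log2 fold change -0.67, SE 0.23). The edgeR adjusted p was 0.931 for both, and the groups did not overlap for either gene. The mean level of this list was lower in every NcoR1ΔHep library than in every flox library with TMM factors, but with total counts it was -0.0013 in NcoR1ΔHep 2 and -0.027 in flox 2, so that they overlapped.

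The fatty acid arm, which the related factor SREBP1c drives, was set beside the sterol enzymes. Of 18 lipogenic genes, 14 were above 0, and the median of the list was 0.25 on the log2 scale. Without NcoR1ΔHep 1, 12 of 18 were above 0, with a median of 0.13. With all libraries, 0 of the 18 had an unadjusted p under 0.05, where 3.35% of all tested genes did. Likewise 0 stood apart between the groups in TMM-scaled CPM, where 8.82% of all genes did. In a list of 18 genes, a count of 0 is near those shares. Their mean level was 0.55, 0.38 and -0.38 in NcoR1ΔHep 1, 2 and 3 and -0.36, -0.49 and 0.29 in flox 1, 2 and 3 (log2, less the mean of 6). NcoR1ΔHep 3 was low and flox 3 high for lipogenesis, while each was on its own group's side for the sterol enzymes. Acss2, an acetyl-CoA synthetase, was at 110 ± 43.6 FPKM in NcoR1ΔHep and 72.5 ± 6.99 FPKM in flox (SD, n = 3 each). Of 11 LXR targets, which answer to sterol excess, 4 were above 0 and the median log2 fold change was -0.04, and this also turned without NcoR1ΔHep 1, with 6 of 11 above 0 and a median of 0.04. Among them Cyp7a1, which turns cholesterol into bile acids, was at 30.2, 31.3 and 20.6 FPKM in NcoR1ΔHep against 4.09, 6.97 and 21.5 FPKM in flox, and Pltp, a phospholipid transfer protein, was at 130 FPKM in NcoR1ΔHep 1 and 21.7 to 37.3 FPKM elsewhere. The log2 fold change of Cyp7a1 was 1.32 (SE 0.57), and that of Pltp was 1.27 (SE 0.55), or 0.28 without NcoR1ΔHep 1. These were the 2 of 11 with an unadjusted edgeR p under 0.05, where 1.43% of all tested genes were higher at that p. Without NcoR1ΔHep 1, 0 of the 11 were higher and 1 was lower at that p, beside 116 and 209 of 13391 tested genes. The differences between these lists were not tested.

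**Figure D5:**
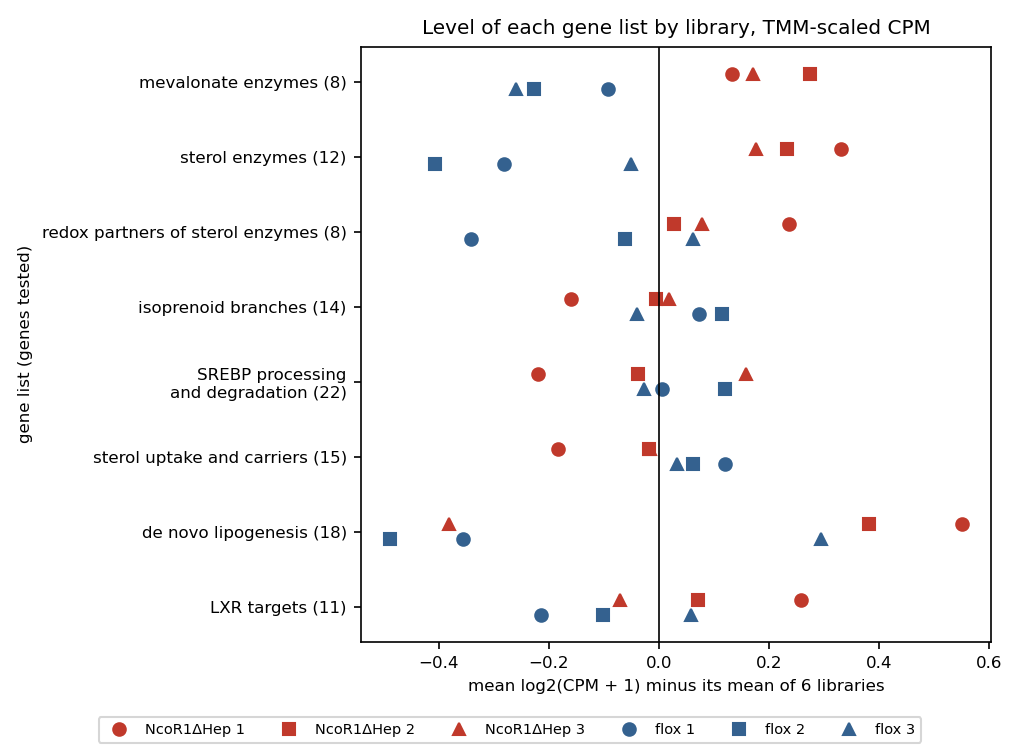
Mean log2(CPM + 1) of each gene list minus its mean of the 6 libraries (x axis), on TMM-scaled CPM, with 1 marker per library and the number of genes tested in brackets. The mevalonate and sterol enzymes have every NcoR1ΔHep library right of every flox library, which for the mevalonate enzymes does not hold with total counts, and NcoR1ΔHep 3 and flox 3 change sides for lipogenesis.

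Promoter sequences are shown for Hmgcs1, Lss and Cyp51, which were among the 6 higher members with an unadjusted p under 0.05, and for the feedback gene Insig1. By the rule set for printing, which asked for the sterol element, Hmgcs1 alone qualified, and the other promoters were chosen after the values were seen. They run from 250 bases before to 50 bases after the transcription start, as RefSeq gives it on GRCm38.p6, and were available for 22 of the 28 members as 28 windows. Hmgcs1 lies at chr13:119690101-119690400 on the plus strand, Insig1 at chr5:28071162-28071461 on the plus strand, Cyp51 at chr5:4104648-4104947 on the minus strand and Lss at chr10:76531355-76531654 on the plus strand. Capitals mark matches on either strand to TCACNCCAC, a form of the sterol regulatory element, to the CCAAT box of NF-Y, a partner of SREBP, and to the E-box CACGTG.
Hmgcs1: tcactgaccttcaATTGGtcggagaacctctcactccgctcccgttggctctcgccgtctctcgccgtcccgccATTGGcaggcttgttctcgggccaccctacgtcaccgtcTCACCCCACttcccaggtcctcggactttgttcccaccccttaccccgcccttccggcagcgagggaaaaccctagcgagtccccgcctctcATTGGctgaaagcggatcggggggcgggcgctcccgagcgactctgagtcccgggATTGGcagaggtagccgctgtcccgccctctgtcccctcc
Insig1: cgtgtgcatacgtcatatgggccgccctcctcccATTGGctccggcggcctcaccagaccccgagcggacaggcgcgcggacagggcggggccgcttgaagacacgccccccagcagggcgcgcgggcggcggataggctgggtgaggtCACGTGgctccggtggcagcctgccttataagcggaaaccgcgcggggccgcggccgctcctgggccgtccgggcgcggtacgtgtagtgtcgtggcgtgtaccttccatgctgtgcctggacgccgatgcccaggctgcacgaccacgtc
Cyp51: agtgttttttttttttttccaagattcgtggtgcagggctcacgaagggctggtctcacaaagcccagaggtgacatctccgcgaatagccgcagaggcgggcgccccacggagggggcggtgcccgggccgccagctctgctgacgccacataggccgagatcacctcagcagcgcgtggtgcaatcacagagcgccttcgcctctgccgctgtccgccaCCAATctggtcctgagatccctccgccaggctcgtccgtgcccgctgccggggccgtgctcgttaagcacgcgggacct
Lss: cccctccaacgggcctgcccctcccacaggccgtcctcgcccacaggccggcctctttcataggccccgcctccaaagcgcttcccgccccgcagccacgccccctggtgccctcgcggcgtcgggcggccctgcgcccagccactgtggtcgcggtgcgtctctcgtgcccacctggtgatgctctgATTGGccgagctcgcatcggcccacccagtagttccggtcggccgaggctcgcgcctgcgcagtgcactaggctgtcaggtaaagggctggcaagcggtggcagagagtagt

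TCACNCCAC was found in 1 member, Hmgcs1, beginning at position -137 from its start, and in 1.24% of all 32851 RefSeq windows of that length. The classical form, which has C for the N and an A before the first T and so overlaps it, was in 0 of the 28 member windows and 0.0913% of all windows. CCAAT was in 20 of the 28 member windows, against 37.4% of all windows, with 4 copies in Hmgcs1 and in Nsdhl and 5 in Mvk. The GC box GGGCGG, not marked above, was in 23 member windows against 35.7% of all windows, and CACGTG in 6 against 7.15%. Promoters differ in base composition, which was not matched here, and a match is a string of letters and not evidence of binding. Beside these letters, the log2 fold changes were 1.06 for Hmgcs1, 0.45 for Insig1, 0.50 for Cyp51 and 0.64 for Lss.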

How the data were processed

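RNA sequencing of mouse liver was analysed from 2 tables covering 3 NcoR1ΔHep and 3 flox libraries, grouped by sample title. Per the labels' protocols, RNA was purified with a Qiagen kit and made into libraries with a SMARTer mRNA kit. The deposited counts are whole read counts per gene symbol with no normalization. The deposited FPKM were made by the authors from these counts, since each value equals a count divided by the library total and by 1 length per gene, so they add no depth. Builds listed in the submitters' processing notes are GRCm38, mm10 and hg38, with no role. The sources used here do not give the aligner, counter or strand setting. No count lacked a gene name.

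Counts were filtered with filterByExpr (minimum count 10, minimum total 15), scaled with TMM factors and tested with edgeR 4.0.16 in R 4.3.3 (quasi-likelihood, two-sided, Benjamini-Hochberg over 13205 genes, threshold 0.05). Fold changes are NcoR1ΔHep over flox on the log2 scale, with SE from the F statistic. Intervals cover the spread of 3 against 3 libraries. DESeq2 1.42.0 and limma 3.58.1 on log2(FPKM + 1) were alternatives, with other scalings and filters, a replicate block and each library left out. The members and gene lists were chosen with earlier results of these data known, so no list was tested as a set. All 28 members are named, with the 2 genes of smallest p from each neighbouring list (Nfil3 and Pnpla3, also in that rule, had log2 fold changes of -1.05 and 2.38, the second 0.35 without NcoR1ΔHep 1). Other genes were chosen after their values were seen. For the sex-linked list Xist and the summed Y-linked counts are described, and Eif2s3y had an edgeR adjusted p of 0.983. That p compares the groups, while Eif2s3y had 6 counts in NcoR1ΔHep 1 and 1420 to 2320 in each other library. Proteins were not used here. Overlapping genes and promoters came from RefSeq, GRCm38.p6. Limits allowed by a count of 0 cover counting error only.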

Additional observations from a re-analysis of the deposited data

How the results depend on the processing

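Of 420 member values under the 15 alternatives, 405 kept their direction, and 22 of the 28 members never changed sign. No member was called under any of the 15, and DESeq2 called 5 of all genes where edgeR called 0. At an unadjusted p under 0.05 the 7 members (3.35% of all genes) became 11 with DESeq2 (3.02%), 4 with limma on filtered log2(FPKM + 1) (2.96%) or log2(FPKM + 0.1) (3.03%), 6 without that filter (2.91%), 3 with total counts only (3.32%) and 3 with the replicate block (1.33%). They ran from 1 to 9 with each library left out, where 0.78% to 6.87% of all genes had such a p. Members above 0 numbered 23 to 27 in all of these. The median log2 fold change of the members was 0.37 with limma on log2(FPKM + 1), with or without a filter, 0.38 with a pseudocount of 0.1, and 0.35 to 0.48 with each library left out. Members with groups apart numbered 9 to 15 with each library left out, where 11.7% to 25.9% of all genes were apart. Npc2 turned to -0.027 with limma on log2(FPKM + 1), with or without a filter, -0.029 with a pseudocount of 0.1, -0.0077 with the replicate block and -0.0037 with total counts only, and ran from -0.17 to 0.12 without single libraries. Over the same settings Idi1 ran from -0.80 to 0.48, Ggps1 from -0.065 to 0.27, Lbr from -0.075 to 0.40, Scap from -0.18 to 0.22 and Stard4 from -0.34 to 0.17. The cause was not tested. Whether the replicate numbers pair the libraries is not stated, and the main fit used no pairing. Same-numbered libraries had correlations of 0.02, -0.32 and -0.46 in their deviations from the group means, and not every library correlated best with its own number. These correlations cannot settle it, because deviations from a mean of 3 libraries depend on each other. With 3 libraries a group, spread between libraries and not depth limits these results: members had 189 to 40786 counts a library.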

Other observations

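Por, the reductase that passes electrons to Cyp51 and Sqle, was chosen after its values were seen. It was at 159, 110 and 62.0 FPKM in NcoR1ΔHep 1, 2 and 3 and at 40.2, 43.7 and 134 FPKM in flox 1, 2 and 3. It was low in flox 1 and flox 2, the libraries with low Dbp, and its log2 fold change was 0.57 (SE 0.52) with overlap, or 0.31 without NcoR1ΔHep 1. Lipa, the lysosomal acid lipase that frees cholesterol from its esters, was likewise chosen after its values were seen, and was at 43.0, 69.3 and 68.6 FPKM in NcoR1ΔHep against 115, 109 and 67.5 FPKM in flox. As for Insig2, flox 1 and flox 2 were high and flox 3 lay within the NcoR1ΔHep range. The log2 fold change of Lipa was -0.64 (SE 0.31), or -0.40 without NcoR1ΔHep 1. Scarb1, the receptor for high-density lipoprotein, was at 17.6, 35.4 and 27.5 FPKM in NcoR1ΔHep and 42.6, 40.4 and 39.4 FPKM in flox, without overlap (log2 fold change -0.57, SE 0.29, edgeR adjusted p = 0.931). Without NcoR1ΔHep 1 its log2 fold change was -0.29.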
